A study of Homo sapiens with 3 samples.

Results

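The genes described here are the inhibitors of the cyclin-dependent kinases (CDK), CDKN1A, CDKN1B, CDKN1C, CDKN2A, CDKN2B, CDKN2C, CDKN2D and CDKN3, with the retinoblastoma gene RB1 and with MTAP, the neighbour of CDKN2A on the short arm of chromosome 9 (9p21). A probe set, a group of short probes whose signals are summarised into a single value, was taken as a member when the annotation of the array gave it to 1 of these genes alone. This gave 24 of the 54675 probe sets on the array and 9 of the 10 listed genes, out of 19775 genes with a probe set of their own. No probe set was assigned to CDKN2C alone, and this gene was not analysed here.

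The cells were SupB15-MR, a multidrug resistant derivative (2 arrays, labelled as biological replicates), and SupB15, its drug sensitive parent, an established line of B-cell precursor acute lymphoblastic leukemia (ALL) that carries the Philadelphia chromosome (1 array). SupB15-MR cells were those that outlived mitoxantrone, a topoisomerase poison, in medium conditioned by the human bone marrow stromal line HS-5 and then grew for months without drug, so that drug, conditioned medium and regrowth cannot be told apart. All 3 cultures were grown in normal medium with serum when RNA was taken. The arrays were Affymetrix HG-U133 Plus 2, and the label of the second SupB15-MR array also carries the clone name MR5. The question was which CDK inhibitor and RB1 transcripts differed between resistant cells and their parent.

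Values are log2 expression after robust multi-array averaging (RMA), so a difference of 1 is a 2-fold change, and levels of different probe sets are not on 1 scale. Each difference is SupB15-MR minus SupB15. Differences were tested with limma over the 46034 probe sets with at least 1 value above 3.47, the 20th percentile of all values, with calls made where the p, adjusted after Benjamini and Hochberg, was 0.05 or less and the change 2-fold or more. SupB15 had 1 array, its own spread was not measured, and the tests take the spread from the SupB15-MR pair, with 1 residual degree of freedom. An exact permutation test of 2 arrays against 1 cannot give a p below 0.333. The SupB15-MR arrays also held identical values at 23368 probe sets (42.7%), and all 3 arrays did so at 7470. The median array value was 5.27 and 5.28 in SupB15-MR and 5.08 in SupB15, a gap of 0.19. Differences below are not adjusted for this gap unless said. It is not an offset shared by every probe set, since the median difference over all probe sets tested was 0. The beta-actin control differed between its 3′ and 5′ probe sets by 2.59 and 2.43 in SupB15-MR and by 0.80 in SupB15, while GAPDH gave -0.091 and -0.11 in SupB15-MR against 0.098 in SupB15. The part of this difference in RNA or labelling in the results below was not tested. Of 11 measured markers of B-cell precursors 0 were called higher and 2 lower, VPREB1 and IGLL1, against 11.8% and 9.05% of all 17530 genes tested. RAG1, of the recombinase, lay the other way, 2.03 higher (limma adjusted p = 0.0548). VPREB1, the surrogate light chain of the pre-B receptor, was at 4.22 and 3.94 in SupB15-MR and 10.5 in SupB15. Of 10 stromal markers, 8 were tested and 0 were called, each at its probe set with the highest mean, where THY1 and DCN differed by -3.22 and -1.10 (limma adjusted p = 0.0657 and 0.0624). Both other THY1 probe sets were called lower.

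Cells enter S phase when cyclin D with CDK4 or CDK6, and then cyclin E with CDK2, phosphorylate RB1 and release the E2F transcription factors. Proteins of the CIP/KIP family (CDKN1A, CDKN1B, CDKN1C) bind whole cyclin and CDK complexes, whereas INK4 proteins (CDKN2A, CDKN2B, CDKN2C, CDKN2D) bind CDK4 and CDK6 alone. Deletion of CDKN2A and CDKN2B, often together with MTAP, is a frequent lesion in ALL, and deletions around ETV6 on the short arm of chromosome 12 can take in CDKN1B.

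The promoters of CDKN1B and CDKN3 are shown because all probe sets of these genes differed by 2-fold or more in 1 direction in both resistant arrays. Each is the 250 bases before the annotated start in RefSeq (GRCh38.p14), at chr12:12717118-12717367 and chr14:54396757-54397006, both on the plus strand. Capitals mark matches on either strand to the GC box (GGGCGG), the CCAAT box (CCAAT) and the CHR element (TTTGAA), a word found in promoters of mitotic genes.
CDKN1B: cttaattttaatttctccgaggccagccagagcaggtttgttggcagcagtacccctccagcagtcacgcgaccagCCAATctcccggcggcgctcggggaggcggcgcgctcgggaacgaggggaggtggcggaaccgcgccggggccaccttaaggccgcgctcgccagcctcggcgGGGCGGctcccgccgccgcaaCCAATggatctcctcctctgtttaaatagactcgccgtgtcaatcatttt
CDKN3: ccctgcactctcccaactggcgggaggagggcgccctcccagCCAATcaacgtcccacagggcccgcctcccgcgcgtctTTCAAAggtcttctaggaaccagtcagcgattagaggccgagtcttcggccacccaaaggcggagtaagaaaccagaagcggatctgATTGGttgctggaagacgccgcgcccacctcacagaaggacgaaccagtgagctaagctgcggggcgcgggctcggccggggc
The CDKN1B window held 1 GC box and 2 CCAAT boxes, and the CDKN3 window held 2 CCAAT boxes and 1 CHR element. Of 35116 promoter windows of this length, 42.6% held a GC box, 32.0% a CCAAT box and 13.3% a CHR element. Neither window held a match to the E2F words TTTCCCGC, TTTCGCGC, TTTGCCGC and TTTGGCGC (2.79% of windows) or to the forkhead word GTAAACA (2.98%). GC content was 64.4% in both, against a median of 58% over all windows.

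Among the members, RB1, CDKN1C, CDKN3 and MTAP each had a probe set called higher in SupB15-MR, and MTAP also had 1 called lower. CDKN1B showed the largest difference of any member, a lower value in both SupB15-MR arrays, which missed the threshold. The 20 member probe sets that passed the filter, whose lowest value was 3.88, held 4 called higher (20%) and 1 called lower (5%), against 13.1% and 9.71% of all probe sets tested. Both resistant arrays were higher by 2-fold or more in 6 (30%) and lower by that much in 4 (20%), against 18.3% and 15% of all probe sets tested. These shares rest on few probe sets, several of them of 1 gene. Over all 24, 12 were higher than SupB15 in both SupB15-MR arrays and 7 were lower in both. The other 5 had the same value on all 3 arrays, as did 7470 of the 54675 probe sets. Shares higher in both or lower in both by any amount were not counted over all probe sets. These counts are therefore no result about the members. The median difference was 0.46 over the 20 tested and 0.056 over all 24, against 0 over all probe sets tested. An unadjusted limma p of at most 0.05 was reached by 10 of the 20 and an adjusted p of at most 0.05 by 8, of which 3 were under 2-fold. The shares of all probe sets tested that reached these p alone were not counted, so the 10 and 8 cannot be compared with them.

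**Figure D1:**
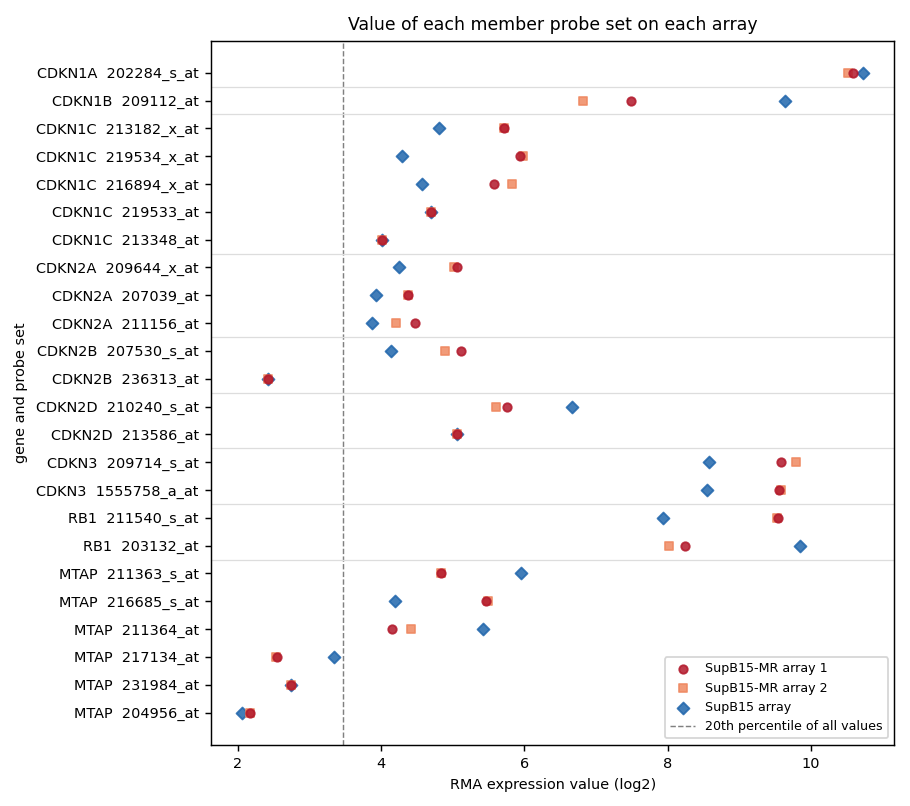
RMA expression value (log2, x axis) of each of the 24 member probe sets (rows) on SupB15-MR array 1 (red circles), SupB15-MR array 2 (orange squares) and the SupB15 array (blue diamonds); the dashed line is the 20th percentile of all values, 3.47. The SupB15 diamond lies outside the SupB15-MR pair in 19 rows and on it in 5, a share that was not counted over all probe sets. The points of the pair lie over 0.5 apart for CDKN1B alone.

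CDKN1A encodes p21, the CDK inhibitor induced by p53. Its probe set 202284_s_at was at 10.59 and 10.51 in SupB15-MR cells and 10.73 in SupB15 cells. The SupB15 value was the highest, but the difference of -0.18 (SE 0.061) did not pass limma's test (adjusted p = 0.212), and it was -0.37 with arrays centred on their medians.

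CDKN1B encodes p27, which holds cyclin E and CDK2 inactive in quiescent cells. Its only probe set, 209112_at, was at 7.48 and 6.81 in SupB15-MR cells and 9.63 in SupB15 cells. Both resistant arrays were lower, by 2.15 and 2.82, and they also differed from each other by 0.67, more than for any other member, where the median gap between the pair was 0.024. The mean difference of -2.48 (SE 0.51), 0.179 of the SupB15 level, was not called (limma adjusted p = 0.125). It passed when probe sets identical in both SupB15-MR arrays were left out of the fit (limma adjusted p = 3.51e-08). In that fit, the spread taken from other probe sets (SD 0.169, 17.1 degrees of freedom) outweighed the 1 residual degree of freedom. It was not called without the filter, after centring or after quantile normalization (limma adjusted p = 0.140, 0.0554 and 0.0819). A 1-way ANOVA did not call it either (adjusted p = 0.232).

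CDKN1C encodes p57, an imprinted inhibitor of the same family, and its 5 probe sets did not move together. The probe set 219534_x_at was at 5.94 and 5.98 in SupB15-MR cells and 4.29 in SupB15 cells, a rise of 1.67 (SE 0.029, limma adjusted p = 0.0102). Both other probe sets of the same naming class, _x_at, which marks probes that may also match other transcripts, lay in the same direction. Of these, 216894_x_at was at 5.58 and 5.83 in SupB15-MR cells and 4.57 in SupB15 cells (difference 1.13, limma adjusted p = 0.102), and 213182_x_at was at 5.72 on both SupB15-MR arrays and 4.80 in SupB15 (difference 0.91, under 2-fold). By contrast, 219533_at and 213348_at gave 4.69 and 4.01 on all 3 arrays, values that 133 and 178 probe sets of the array shared exactly. The higher values of CDKN1C were thus seen in its 3 _x_at probe sets and in 0 of 2 others.

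CDKN2A encodes p16 and, from another reading frame, the p53 activator ARF. All 3 of its probe sets were somewhat higher in both SupB15-MR arrays, each by less than 2-fold. The largest difference was in 209644_x_at, at 5.06 and 5.02 in SupB15-MR cells and 4.24 in SupB15 cells (0.79, SE 0.029, limma adjusted p = 0.022). The others were 207039_at, at 4.38 on both SupB15-MR arrays and 3.93 in SupB15, and 211156_at, at 4.47 and 4.21 in SupB15-MR and 3.88 in SupB15. The adjusted p was 0.000769 for 207039_at and 0.265 for 211156_at (limma). None of the 3 reached 2-fold, so none was called.

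CDKN2B, which encodes p15, had 1 probe set above the filter. That probe set, 207530_s_at, was at 5.12 and 4.90 in SupB15-MR cells and 4.14 in SupB15 cells, a difference of 0.87 (SE 0.17, limma adjusted p = 0.118). The other, 236313_at, was at 2.43 on all arrays. CDKN2A and CDKN2B are close paralogs, and probes of one may read the other.

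CDKN2D, which encodes p19, differed the other way from CDKN2A and CDKN2B. Its probe set 210240_s_at was at 5.76 and 5.61 in SupB15-MR cells and 6.67 in SupB15 cells, a difference of -0.99 (SE 0.11, limma adjusted p = 0.0705). Both resistant arrays were below SupB15, and the difference was called after centring (-1.18, limma adjusted p = 0.0239) and after quantile normalization (-1.11, limma adjusted p = 0.0410). The second probe set, 213586_at, was at 5.06 on all 3 arrays. Among INK4 genes, then, 0 of 7 probe sets were called, 4 were higher in both SupB15-MR arrays and 1 was lower.

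**Figure D2:**
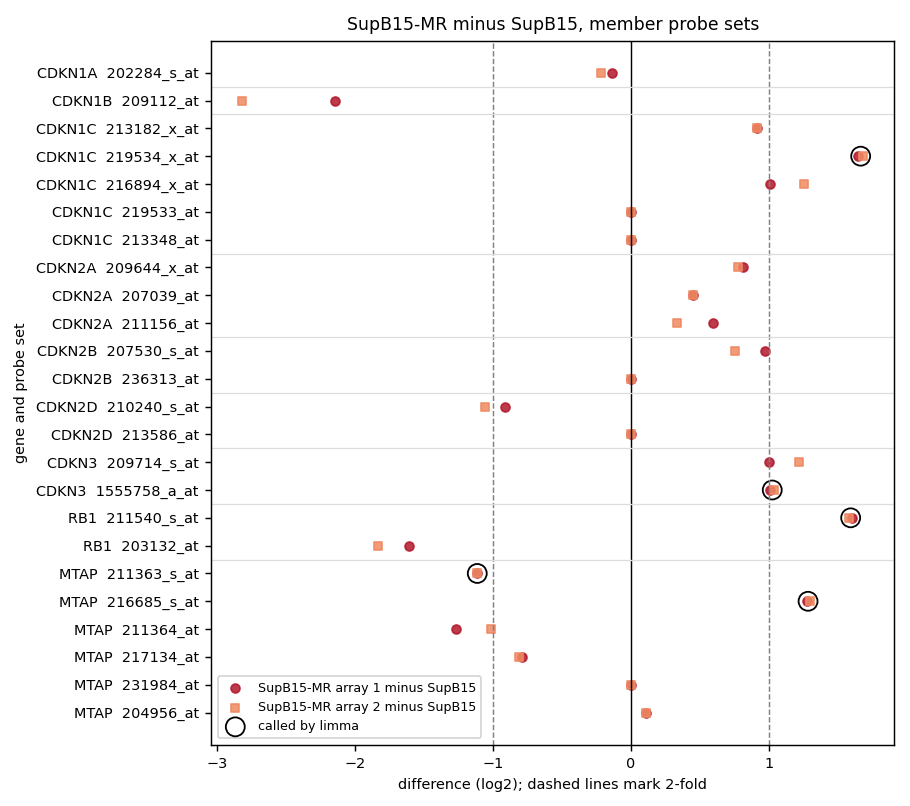
Difference from the SupB15 array (log2, x axis) of SupB15-MR array 1 (red circles) and SupB15-MR array 2 (orange squares) for the 24 member probe sets (rows); dashed lines mark 2-fold and rings mark the 5 probe sets called by limma. Probe sets of CDKN1C, CDKN2A and CDKN3 lie at or right of 0, CDKN1B and CDKN2D at or left of it, and RB1 and MTAP on both sides.

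CDKN3 is not an inhibitor of the binding type but a phosphatase that removes the activating phosphate from CDK2 and CDK1, and its transcript peaks in dividing cells. Its 2 probe sets were the only pair of a member in which both were higher by 2-fold or more in both resistant arrays. The probe set 1555758_a_at was at 9.55 and 9.58 in SupB15-MR cells and 8.54 in SupB15 cells, a rise of 1.03 (SE 0.020, limma adjusted p = 0.0116). For 209714_s_at the values were 9.58 and 9.79 in SupB15-MR cells and 8.57 in SupB15 cells (difference 1.11, SE 0.16, limma adjusted p = 0.0885). Both stood close to the 2-fold line, and after centring they were 0.83 and 0.92, under 2-fold.

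RB1 encodes the pocket protein that holds E2F factors inactive until CDKs phosphorylate it. Its 2 probe sets gave opposite answers, each about 3-fold. The probe set 211540_s_at was at 9.54 and 9.52 in SupB15-MR cells and 7.94 in SupB15 cells, a rise of 1.59 (SE 0.015, limma adjusted p = 0.00524). The probe set 203132_at was at 8.24 and 8.02 in SupB15-MR cells and 9.85 in SupB15 cells, a difference of -1.72 (SE 0.17, limma adjusted p = 0.0607). The SupB15-MR arrays did not overlap SupB15 in either probe set, and the mean over both probe sets was -0.064. The lower value was called too after centring (-1.91, limma adjusted p = 0.0213). No direction for RB1 RNA as a whole follows from these values.

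MTAP encodes the phosphorylase that returns methylthioadenosine to the adenine and methionine pools. It also divided by probe set. The probe set 216685_s_at was at 5.47 and 5.49 in SupB15-MR cells and 4.19 in SupB15 cells, a rise of 1.29 (SE 0.016, limma adjusted p = 0.0071). In contrast, 211363_s_at was at 4.83 on both SupB15-MR arrays and 5.95 in SupB15, and fell by 1.11 (limma adjusted p = 0.000645, with no measured spread between the resistant pair). Another, 211364_at, was at 4.16 and 4.41 in SupB15-MR cells and 5.43 in SupB15 cells (difference -1.14, SE 0.19, limma adjusted p = 0.102). The other 3 lay at or below 3.47 on every array, of which 217134_at was at 2.55 and 2.53 in SupB15-MR and 3.34 in SupB15.

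Probe sets of 1 gene pointing in opposite directions were not particular to RB1 and MTAP. Of 9016 genes with at least 2 probe sets tested, 853 (9.46%) held 1 probe set higher and another lower by 2-fold or more in both resistant arrays, or 15.04% of the 5670 with any probe set 2-fold apart. The calls among the members were also counted by naming class, with no test of the difference. Of 8 members with plain _at names, 3 had the same value on all arrays, 0 were called and 3 were lower by 2-fold or more in both arrays (CDKN1B, RB1, MTAP), whereas all 5 calls lay in the 12 members named _s_at, _x_at or _a_at. With the variance prior taken from probe sets that differ, these probe sets of CDKN1B, RB1 and MTAP were called (limma adjusted p = 5.36e-08, 7.62e-07 and 9.98e-05). Over all probe sets tested, 12.05% were called higher and 9.61% lower for plain _at, and 16.0% and 9.87% for _s_at. The part of probe position or cross-hybridisation in the members' values was not tested.

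The gene neighbours of the members were then described in chromosome order, each by all its probe sets. Around MTAP, CDKN2A and CDKN2B at 9p21, 30 genes had 52 probe sets, of which 27 passed the filter, and both resistant arrays were higher by 2-fold or more in 4 and lower in 10. On the list of neighbours without the members, 13 genes were tested on the probe set with the highest mean, and 1 was called higher and 4 lower. HACD4, KLHL9 and MIR31HG passed the filter through SupB15 alone and could differ only toward lower values, so these counts are not set against those of all genes. KLHL9, an adaptor of a ubiquitin ligase, was at 3.01 and 2.66 in SupB15-MR cells and 8.79 in SupB15 cells (213233_s_at, limma adjusted p = 0.0277). All 4 of its probe sets were at or below 3.47 in both SupB15-MR arrays, and 1 of them was so in SupB15 too. With values raised to 3.47, the difference at 213233_s_at is at least 5.32 in size. HACD4, an enzyme of fatty acid elongation, was at 2.38 and 2.20 in SupB15-MR and 7.64 in SupB15 (244050_at, limma adjusted p = 0.0152), by the same reckoning at least 4.18 lower. The other HACD4 probe set, 236939_at, was at 2.78 on all 3 arrays. FOCAD was at 3.79 and 3.90 in SupB15-MR and 5.91 in SupB15 (218503_at, difference -2.07, limma adjusted p = 0.0256). The other FOCAD probe set, 232875_at, lay at or below 3.47 on every array. On the CDKN2B side DMRTA1 was at 5.40 and 5.37 in SupB15-MR and 3.85 in SupB15 (rise of 1.54, limma adjusted p = 0.00821). CDKN2B-AS1, the antisense RNA of the locus, was at 2.50 on all 3 arrays. The same stretch held 3 MTAP and 3 CDKN2A probe sets above 3.47 on every array, and 3 MTAP probe sets at or below it on every array. The CDKN2A values, from 3.88 to 5.06, all lay below the median of their array. Copy number was not measured.

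On chromosome 12, CDKN1B lay among 11 genes with 30 probe sets, 26 of them above the filter. Both resistant arrays were higher by 2-fold or more in 1 and lower in 7, against 18.3% and 15% of all probe sets tested. Some of the 26 passed the filter through SupB15 alone and could differ only toward lower values. Of those 7, 5 were of ETV6, a repressor of the ETS family. All 5 of its probe sets had lower values in both resistant arrays, and 4 were called. Its 239364_at was at 4.71 and 4.54 in SupB15-MR cells and 9.81 in SupB15 cells (difference -5.19, limma adjusted p = 0.0148). In 235056_at and 225764_at both SupB15-MR values were at or below 3.47, so the differences are bounds, at least 4.71 and 4.41 in size. CDKN1B itself was another of the 7. Between ETV6 and CDKN1B lay BCL2L14, LRP6, MANSC1, BORCS5, DUSP16 and CREBL2. Their mean differences over all their probe sets were 0.10, -0.30, -0.78, -0.39, 0.0014 and -0.60. GPR19, a receptor gene next to CDKN1B, also lay there, at 5.51 and 5.26 in SupB15-MR and 4.18 in SupB15 (difference 1.20, limma adjusted p = 0.0969). The neighbour list without CDKN1B had 0 genes called higher and 1 called lower of 9 tested, with a median of -0.30. These are 0% and 11.1%, against 11.8% and 9.05% of all genes tested.

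On chromosome 13, RB1 lay among 12 genes with 30 probe sets, 28 of them above the filter. Both resistant arrays were higher by 2-fold or more in 5 and lower in 10, against 18.3% and 15% of all probe sets tested. MED4, a subunit of Mediator, was at 7.24 and 7.23 in SupB15-MR cells and 9.30 in SupB15 cells (217843_s_at, difference -2.07, limma adjusted p = 0.00124). KPNA3, an importin, divided as RB1 did. Its 221503_s_at was at 10.0 and 9.95 in SupB15-MR and 8.75 in SupB15 (difference 1.23, limma adjusted p = 0.0244), and its 221502_at at 8.53 and 8.12 in SupB15-MR and 9.98 in SupB15 (difference -1.66, limma adjusted p = 0.114). DLEU2, a long non-coding RNA, split most widely. Its 216856_s_at was at 9.56 and 9.58 in SupB15-MR and 5.35 in SupB15 (difference 4.22, limma adjusted p = 0.00252), and its 1556821_x_at at 5.32 and 4.96 in SupB15-MR and 10.4 in SupB15 (difference -5.25, limma adjusted p = 0.0317). Of 10 neighbours tested without RB1, 1 was called in each direction (10% each, against 11.8% and 9.05% of all genes tested), and the median was -0.72.

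**Figure D3:**
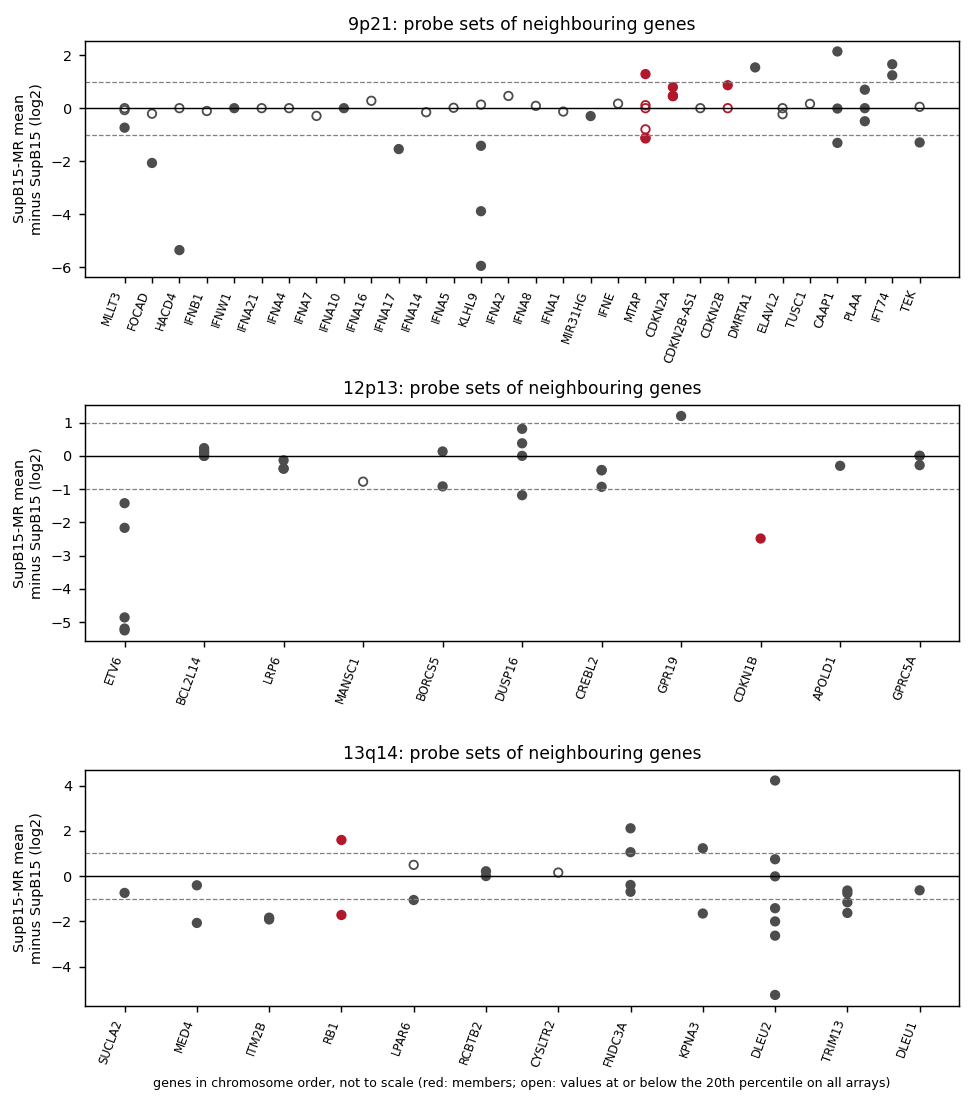
Mean SupB15-MR minus SupB15 difference (log2, y axis) of each probe set, by gene in chromosome order (x axis, not to scale) at 9p21, 12p13 and 13q14; red points are members, filled points passed the filter, open points lay at or below the 20th percentile on all arrays, and dashed lines mark 2-fold. KLHL9 and HACD4 at 9p21, ETV6 at 12p13 and DLEU2 at 13q14 reach below -5 on the values as measured. RB1, MTAP, DLEU2, KPNA3 and CAAP1 have points more than 2-fold to both sides of 0.

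Among the partners on which the inhibitors act, 8 D and E cyclins and their kinases, 1 was called higher and 0 lower, with a median of 0.29. These are 12.5% and 0%, against 11.8% and 9.05% of all genes tested. The one called was CCNE1, cyclin E, the partner of CDK2 that p27 restrains, at 9.25 and 9.27 in SupB15-MR cells and 7.17 in SupB15 cells (rise of 2.09, limma adjusted p = 0.00289). CDK2 was at 8.95 on all 3 arrays, a difference of 0 that is -0.19 after centring. CDK4 was at 11.0 and 11.3 in SupB15-MR and 10.9 in SupB15, which did not pass the test. CCND2 was at 4.06 and 4.73 in SupB15-MR and 4.07 in SupB15, so that SupB15 lay between the resistant arrays. CCND3, the D cyclin of lymphoid precursors, was at 12.2 and 12.3 in SupB15-MR and 12.1 in SupB15, a difference of 0.11 that was -0.085 after centring. CDK6 had 7 probe sets with differences of -1.18 to 3.76, of which 3 were called, all higher, while its probe set with the highest mean differed by 0.42.

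Of 12 pocket proteins and E2F factors besides RB1, 4 were called higher and 1 lower (33.3% and 8.33%, against 11.8% and 9.05% of all genes tested), with a median of 0.42. E2F3, an activator of S-phase genes, was at 10.5 and 10.3 in SupB15-MR and 7.95 in SupB15 (rise of 2.45, limma adjusted p = 0.0462). The dimer partners of E2F, TFDP1 and TFDP2, rose by 1.24 and 2.26 (limma adjusted p = 0.0192 and 0.0215). E2F8, a repressor, was at 6.81 and 6.77 in SupB15-MR and 9.11 in SupB15 (difference -2.32, limma adjusted p = 0.00763). RBL2, the p130 relative of RB1, split like RB1. Its 212332_at was at 8.40 and 8.42 in SupB15-MR and 7.33 in SupB15 (difference 1.09, limma adjusted p = 0.00895, 0.90 after centring), while 212331_at was at 5.81 and 5.67 in SupB15-MR and 8.37 in SupB15 (limma adjusted p = 0.0236). RBL1, p107, had 4 probe sets, of which 1 was called higher and 1 lower. Its highest one differed by 0.043, or by -0.15 after centring.

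Genes that E2F transcribes in S phase did not move together: of 17 tested, 1 was called higher, 0 lower, and the median was -0.10. These are 5.88% and 0%, against 11.8% and 9.05% of all genes tested. RRM2, a subunit of ribonucleotide reductase, rose by 1.38 (limma adjusted p = 0.0225), although its second probe set differed by -0.35. MCM5, of the replicative helicase, was at 8.06 and 8.35 in SupB15-MR and 10.1 in SupB15 (216237_s_at, difference -1.85, limma adjusted p = 0.0712), and its second probe set differed by 0.28. PCNA, the sliding clamp, differed by -1.22 (limma adjusted p = 0.134). CCNA2, cyclin A, differed by 1.16 at its highest probe set (limma adjusted p = 0.0893) and by -0.17 at the other. Of 8 genes that act with CDK1 in mitosis, 2 were called in each direction. These are 25% each, against 11.8% and 9.05% of all genes tested, and the share rests on few genes. CCNB1 rose by 1.69 and the phosphatase CDC25B by 1.29 (limma adjusted p = 0.000645 for each, with no measured spread between the resistant pair). The second probe set of CCNB1 differed by 0.24. PKMYT1, a kinase that inhibits CDK1, differed by -1.33 (limma adjusted p = 0.0271). CCNB2 differed by -1.17 at its highest probe set and by 1.21 and 0.94 at its others.

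Factors that control turnover and transcription of p27 and p21 were called in both directions, 2 higher and 2 lower of 16, with a median of -0.024. These are 12.5% each, against 11.8% and 9.05% of all genes tested. SKP2, which brings p27 to its ubiquitin ligase, differed by 0.14 at its highest probe set (-0.054 after centring) and by 0.33 and 1.21 at the others. CUL1, the scaffold of that ligase, rose by 1.38 (limma adjusted p = 0.0289). CCNF, another receptor for the same scaffold, was at 9.42 on both SupB15-MR arrays and 8.38 in SupB15 (difference 1.04, limma adjusted p = 0.000645), but only 0.85 higher after centring, under 2-fold. Its second probe set rose by 1.80. Other ligase subunits on this list had lower values. SKP1 differed by -1.43 (limma adjusted p = 0.0808) and RBX1 by -0.97, under 2-fold, so neither was called. DDB1 and DTL, parts of the ligase that degrades p21 in S phase, fell by 2.74 and 1.71 (limma adjusted p = 0.0175 and 0.0463). DDB1 was at 7.12 and 7.01 in SupB15-MR and 9.80 in SupB15.

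Polycomb and other regulators of the INK4 locus held 1 gene called higher and 1 lower of 13 tested, with a median of 0.23. These are 7.69% each, against 11.8% and 9.05% of all genes tested. PHC1, of the first Polycomb complex, rose by 1.32 (limma adjusted p = 0.000645, with no measured spread between the resistant pair). SUZ12, of the second, was at 9.63 and 9.55 in SupB15-MR and 11.2 in SupB15 (difference -1.63, limma adjusted p = 0.0225), and its other 2 probe sets were called 1 in each direction.

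The list around MTAP held 12 genes of methionine and polyamine metabolism, with the methyltransferase that the substrate of MTAP inhibits. Of these 12, 3 were called lower (25%, against 9.05% of all genes tested) and 0 higher (against 11.8%), with a median of -0.040. These 3 are enzymes of the salvage route. MRI1, the isomerase of that route nearest to MTAP, was at 8.06 and 8.24 in SupB15-MR and 8.24 in SupB15 (difference -0.092, limma adjusted p = 0.687). ADI1, the dioxygenase near its end, was at 9.23 and 9.24 in SupB15-MR cells and 11.5 in SupB15 cells (difference -2.24, limma adjusted p = 0.00083), and its second probe set gave -2.77. APIP, the dehydratase, was at 8.51 on both SupB15-MR arrays and 9.96 in SupB15 (limma adjusted p = 0.000645). Its second probe set, 232630_at, lay at or below 3.47 on every array. ENOPH1, which acts between APIP and ADI1, was at 9.32 and 9.19 in SupB15-MR and 10.5 in SupB15 (limma adjusted p = 0.0492).

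**Figure D4:**
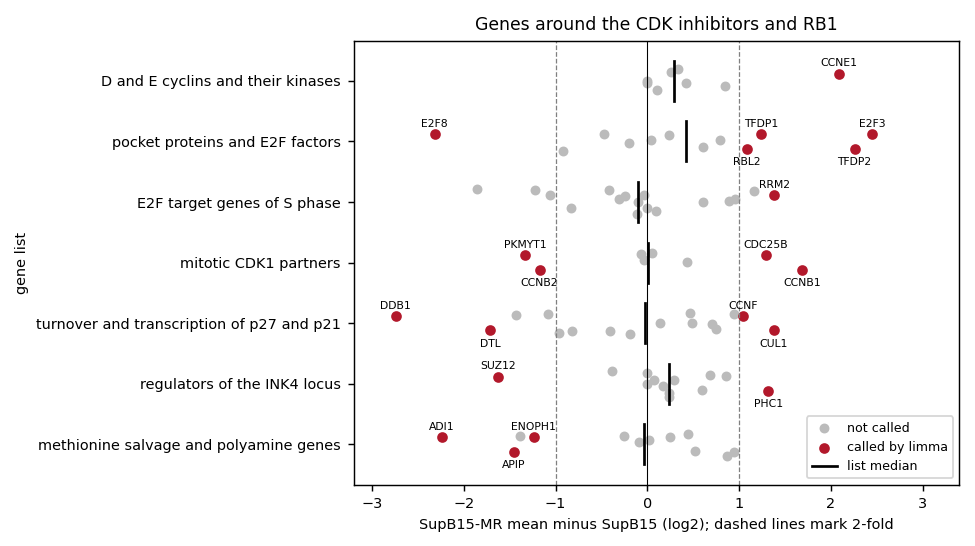
Mean SupB15-MR minus SupB15 difference (log2, x axis) of the genes in 7 lists around the members (rows), each gene at its probe set with the highest mean; red points with names were called by limma, grey points were not, black bars are list medians and dashed lines mark 2-fold. Medians lie between -0.10 and 0.42, and 3 of the 12 methionine salvage and polyamine genes were called, all lower.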

How the data were processed

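The authors extracted total RNA with the Qiagen RNeasy Micro kit, labelled it with the NuGEN Ovation Biotin system, and deposited log2 values normalised and summarised with RMA. The number of arrays limits the precision, since arrays carry no read depth. Of the 54675 probe sets, 41097 carry 1 gene in the annotation of the array, 1801 several and 11777 none. The methods' removal of the lowest 20 percentile was read as all 3 values at or below it (8641 removed). limma 3.58.1 in R 4.3.3 was fitted over all kept probe sets and tested on simulated data. The 18289 kept probe sets identical in both SupB15-MR arrays entered with a spread of 0. Lists used 1 probe set a gene, that with the highest mean over the 3 arrays. Named were all members and, from each list, up to 4 genes with the largest difference among those called (2-fold in both arrays where fewer than 2 were called). CCND2, CCND3, CCNE1, CDK2, CDK4, CDK6, RBL1, RBL2, SKP2 and CDKN2B-AS1 were always named. BCL2L14, BORCS5, CAAP1, CREBL2, DLEU2, DUSP16, LRP6, MANSC1, MIR31HG, MRI1, RAG1, RBX1 and SKP1 were named after their values were seen. The members and lists were chosen with earlier results of these data known. Alternatives concerned filter, scaling, test, variance prior, probe set class and replicates. No sequence was aligned, and copy number was not analysed here.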

Additional observations from a re-analysis of the deposited data

How the results depend on the processing

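The spread of SupB15 cultures was not measured, so every adjusted p takes it from the SupB15-MR pair. Calls of probe sets identical in that pair, members or not, rest on no measured spread. Of the member counts, the 4 called higher became 3 with arrays centred on their medians and 3 with quantile normalization. They became 6 without probe sets identical in both SupB15-MR arrays and 6 with the variance prior taken from probe sets that differ. The count was 0 with a 1-way ANOVA, which could be run only on the 27745 kept probe sets that differ between the SupB15-MR arrays. It was also 0 among probe sets ending in plain _at. The 1 called lower became 4 with arrays centred on their medians, 3 with quantile normalization, 3 without probe sets identical in both SupB15-MR arrays, 4 with the variance prior taken from probe sets that differ, and 0 with the ANOVA or plain _at only; that call, MTAP 211363_s_at, is identical in the pair and entered neither the ANOVA nor the fit without identical probe sets. The 6 higher by 2-fold or more in both arrays became 3 after centring, 3 after quantile normalization and 0 with plain _at only. Without 1 SupB15-MR array the counts 2-fold or more apart were 6 higher and 4 to 5 lower; no residual degree of freedom was then left, so calls could not be made. Across all probe sets, calls were 6021 higher and 4470 lower, against 6552 and 7762 after centring, 7717 and 5934 without identical probe sets, 9005 and 7471 with the other prior, and 0 with the ANOVA (6778 where the unadjusted p was 0.05 or less and the change 2-fold). Centring changed direction for CCND3 (-0.085), RBL1 (-0.15) and SKP2 (-0.054), and quantile normalization for RBL1 (-0.034). The mean over a gene's probe sets turned RB1 (-0.064), RBL2 (-0.77) and KPNA3 (-0.21) negative and CCNB2 positive (0.32), as did the median (-0.064, -0.77, -0.21 and 0.94). The probe set highest in SupB15 gave -1.72 for RB1, -2.63 for RBL2, -1.66 for KPNA3, -0.35 for RRM2, -0.17 for CCNA2 and -0.36 for CDK6. The cause was not tested. Of the other values of named genes under these alternatives, 474 kept their side of the threshold or moved by less than the spread of the SupB15-MR pair, 33 newly passed it, 36 no longer did and 58, with no test, moved by more than that spread. CCND2 was -0.0065 without SupB15-MR replicate 2. No paired analysis was possible because SupB15 has 1 array.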

Other observations

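The 5 member probe sets with the same value on all 3 arrays did not hold values of their own. The exact 3 values of CDKN1C 219533_at (4.69) occurred at 133 probe sets and those of CDKN1C 213348_at (4.01) at 178. Those of CDKN2D 213586_at (5.06) occurred at 32, and those of CDKN2B 236313_at (2.43) and MTAP 231984_at (2.74) at 42 each. The 3 values of each of the 19 other member probe sets occurred once. A difference of 0 at these 5 probe sets is thus a value shared with many unrelated probe sets, and the cause was not tested.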
